A study of Mus musculus with 4 samples.

Results

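The genes described here are the ligands Gas6 and Pros1 and the receptor tyrosine kinases Axl, Mertk and Tyro3, which together form the TAM system. They were chosen by gene symbol, and all 5 were among the 32285 genes counted. Gas6 and protein S, the product of Pros1, are secreted proteins that bind phosphatidylserine on dying cells and membrane fragments through a domain carboxylated in a vitamin K-dependent reaction, and bind the receptors at their other end. Axl is activated by Gas6, whereas Mertk and Tyro3 respond to both ligands. The family is known for the uptake of dead cells by phagocytes, for damping inflammatory signalling and, in the case of Axl, for survival and motility of mesenchymal cells. Only RNA was measured, so a class that holds ligand RNA is called a source and a class that holds receptor RNA a possible recipient.

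The study examined the role of Myrf, which encodes a membrane-tethered transcription factor, in the mesothelium that covers the embryonic mouse lung. Mutant embryos carried floxed Myrf (Myrf Fl/Fl), a tamoxifen-inducible Cre driven from Wt1 (Wt1creERT2) and a Cre-dependent tdTomato reporter at R26, and Cre controls carried Wt1creERT2 and the reporter. As the labels describe the mating, both parents were Myrf Fl/Fl, so the Myrf alleles of the Cre controls are not clear from them. Dams of both groups received tamoxifen on embryonic day E12.5, and on E16.5 3 to 5 lungs per genotype were taken and pooled, and living tdTomato-positive cells were sorted for droplet sequencing of transcript 3' ends. Wt1 marks mesothelium and other cells of mesodermal origin, and the reporter also stays on in descendants of recombined cells, so the sort is not limited to mesothelium. Lungs were assigned to a genotype by their appearance and typed by PCR later. There were 2 libraries of mutants and 2 of controls, and nothing in the labels tells whether the pair of a genotype was drawn from 1 pool or 2. The p-values below therefore measure only the spread between these libraries, which may be technical.

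After filtering, mutant libraries 1 and 2 held 411 and 4275 cells with 20884697 and 80666128 unique molecular identifiers (UMIs), and control libraries 1 and 2 held 281 and 3503 cells with 8175944 and 57965000 UMIs. Cells of the libraries numbered 1 were deeper, with medians of 38643 UMIs in mutant 1 and 29175 in control 1, against 15966 in mutant 2 and 14313 in control 2. Between 0 and 4 kept cell barcodes were shared by any pair of libraries. Mutant libraries 1 and 2 held 19.1 and 7.20 CPM of Myrf (CPM is the count of UMIs of a gene relative to all UMIs of the same cells, on a fixed scale), against 76.0 and 48.6 CPM in controls. The floxed exons are not given in the sources used here, so this 3' count does not check the deletion. Although the samples are labelled as mesothelial cells, clusters that carried 10 to 12 of 12 fixed mesothelial markers made up 0.487% and 0.257% of the mutant cells and 42.0% and 21.1% of the control cells. In control 2, 2047 of 3503 barcodes fell in a cluster of mixed profile that stayed unnamed. This cluster carried 8 of the 12 mesothelial markers, more than of any other list. Yet 78.5% of all fixed markers lay within 2-fold of their level in the other cells of control 2. Whether these barcodes hold mesothelial cells was not tested. Changes over all sorted cells and shares of UMIs in controls are given with and without the mixed cluster.

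Other classes were called after their fixed markers. Smooth muscle-like cells formed 2 clusters, one with Tnnt2, Actc1 and Ramp1 among its leading genes (Tnnt2 muscle-like) and one led by Crh (Crh smooth muscle-like). The Tnnt2 muscle-like cluster held 264 and 1507 cells in mutant libraries 1 and 2 but 2 and 23 cells in control libraries 1 and 2. Fibroblast-like cells, in clusters named here after their markers Lef1, Tcf21 or Agtr2, numbered 75 and 2228 in mutants and 85 and 478 in controls. Cells called epithelial-like, pericyte-like, endothelial-like or immune-like were fewer than 60 per class in every library. Mesenchymal-like cells below are the fibroblast-like, smooth muscle-like and pericyte-like cells together. The clustering used Gas6, Pros1 and Axl among its variable genes, so differences between classes are given as descriptions without a test.

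Each gene is given by its position on GRCm38 (mm10), from the GENCODE vM21 annotation. Gas6 (ENSMUSG00000031451) lies on chromosome 8 from 13465374 to 13494490 on the minus strand and overlaps Tmem255b on the other strand, which had 0 and 2 UMIs in mutant libraries and 8 and 17 in control libraries. Pros1 (ENSMUSG00000022912) lies on chromosome 16 from 62854307 to 62929346 on the plus strand. Axl (ENSMUSG00000002602) lies on chromosome 7 from 25757273 to 25788705 on the minus strand. Mertk (ENSMUSG00000014361) and Tyro3 (ENSMUSG00000027298) lie on the plus strand of chromosome 2, Mertk from 128698956 to 128802894 and Tyro3 from 119797733 to 119818104. All are protein-coding, and Mertk overlaps the antisense gene Gm14011, which had 1 and 0 UMIs in mutant libraries and 2 and 1 in control libraries. Whether the counting used strand is not given in the sources used here.

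The promoters of Gas6, the ligand whose level differed most between genotypes, and Axl, its high-affinity receptor, are shown as RefSeq gives them on GRCm38.p6, from 250 bases before to 50 after the transcription start. The windows are chr8:13494486-13494785 on the minus strand for Gas6 and chr7:25788684-25788983 on the minus strand for Axl, and capitals mark matches to the motifs searched:
Gas6: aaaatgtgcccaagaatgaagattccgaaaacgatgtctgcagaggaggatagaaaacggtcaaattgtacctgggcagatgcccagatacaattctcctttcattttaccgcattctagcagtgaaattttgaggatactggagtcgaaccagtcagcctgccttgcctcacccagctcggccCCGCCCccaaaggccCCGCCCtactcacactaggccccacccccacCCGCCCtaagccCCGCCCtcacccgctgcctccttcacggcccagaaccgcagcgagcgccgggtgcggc
Axl: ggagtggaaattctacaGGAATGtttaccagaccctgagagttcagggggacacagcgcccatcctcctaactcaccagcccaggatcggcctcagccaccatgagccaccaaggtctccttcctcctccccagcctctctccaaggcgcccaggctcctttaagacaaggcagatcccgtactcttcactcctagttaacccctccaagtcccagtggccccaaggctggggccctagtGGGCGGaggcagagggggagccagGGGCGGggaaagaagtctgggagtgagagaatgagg
The letters CTGGCAC and CTGGTAC, cores of the DNA sequence that MYRF binds, were searched on both strands and occurred in none of the 5 promoters, against 5.01% and 2.24% of 32851 promoters of the same length. TGANTCA, the AP-1 site, also occurred in none of the 5 (7.81% of all promoters). GGAATG, the site of TEAD factors, occurred once, 233 bases before the start of Axl (14.7% of all promoters). GGGCGG, the site of SP and KLF factors, occurred 4 times in Gas6, 5 in Pros1, 2 in Axl, 4 in Mertk and 6 in Tyro3, some overlapping, and was present in 35.7% of all promoters. These are matches of letters, and binding was not measured. The bases G and C made up 58.3% of the window of Gas6, 66.7% of Pros1, 60.3% of Axl, 66% of Mertk and 73.3% of Tyro3. The median over all promoters was 52.7%, and the motif shares were not adjusted for this.

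Gas6 RNA was lower, relative to all UMIs, in mutant than in control sorts, and the class that held it differed. Mutant libraries 1 and 2 had 149.9 and 65.7 CPM over all sorted cells, against 645.8 and 396.2 CPM in control libraries 1 and 2. Both mutant libraries were below both controls. The log2 change was -2.23 ± 0.417 (SE, n = 2 per group), which did not pass in the test over all genes (edgeR quasi-likelihood, Benjamini-Hochberg adjusted p = 0.137). It passed in 4 of 13 alternatives, among them DESeq2 (adjusted p = 1.05e-06), edgeR without a filter on low counts (adjusted p = 0.000117) and edgeR without mutant replicate 1 (adjusted p = 5.89e-05), which leaves 1 mutant library assumed to vary like the controls. Over 13 alternatives the adjusted p ranged from 1.05e-06 to 0.379, and without the mixed barcodes the change was -2.24 (edgeR adjusted p = 0.131). The 12 fixed mesothelial markers together stood at 332 and 149 CPM in mutants and 2777 and 2156 CPM in controls, with 1 and 0 of them at 0 in mutants and none at 0 in controls; their part in this result was not tested. In a sum over all cells, fewer cells of a type and less RNA per cell cannot be told apart.

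In controls, mesothelial-like cells were the main source of Gas6. They held 94 of 3131 Gas6 UMIs in mutant 1 and 89 of 5303 in mutant 2, against 4951 of 5280 in control 1 and 14046 of 22967 in control 2, where mixed barcodes held another 8094. The shares were thus 3.00% and 1.68% in mutants and 93.8% and 61.2% in controls, and with the mixed barcodes left out 3.00% and 1.69% in mutants and 95.1% and 94.4% in controls. Levels within mesothelial-like cells were 586 and 369 CPM in mutant libraries 1 and 2, from 2 and 11 cells, against 1174 and 879 CPM in control libraries 1 and 2, from 118 and 738 cells. With so few mutant cells no comparison within the class was made. When the cells were clustered without the 5 genes, mutant 2 kept 3 mesothelial-like cells at 651 CPM of Gas6. At a common depth of 5000 UMIs per cell, 96.6% (114 of 118) and 95.3% (686 of 720) of control mesothelial-like cells had a Gas6 UMI, from medians of 34788 and 20339 UMIs before thinning.

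In mutants, Tnnt2 muscle-like cells, which were 64.2% and 35.3% of the cells, held most Gas6 UMIs. They held 2726 of 3131 in mutant 1 and 3491 of 5303 in mutant 2, or 87.1% and 65.8%, against 11 and 80 UMIs, or 0.208% and 0.348%, in control libraries 1 and 2 (0.211% and 0.538% with the mixed barcodes left out). The level in this cluster was 192 and 114 CPM in mutants and 207 and 203 CPM in controls, the control values resting on 2 and 23 cells. Control 1 had a 95% Poisson interval of 103 to 371 CPM, which covers both mutant values, and control 2 had one of 161 to 253 CPM, which covers mutant 1 only. These intervals, like all intervals here, cover counting error only. At 5000 UMIs per cell, 50.6% (128 of 253) and 39.6% (581 of 1469) of the mutant cells in this cluster had a Gas6 UMI, from medians of 43842 and 15831 UMIs before thinning. Within the mutant libraries this cluster stood between the mesothelial-like cells and the fibroblast-like cells, which held 74.2 and 37.5 CPM.

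Gas6 was low in Crh smooth muscle-like cells, at 17.0 and 13.3 CPM in mutants and 19.4 and 32.5 CPM in controls. Immune-like cells held 183 and 208 CPM in mutant libraries 1 and 2, from 3 and 12 cells, and 258 CPM in control 2, from 7 cells, while control 1 had no cell of this class. Upk3b, which encodes a uroplakin of the mesothelial surface, was at 0 in the immune-like cells of both mutants and at 284 CPM in those of control 2. Epithelial-like cells held 31.9 and 21.0 CPM of Gas6 in mutants and 409 and 61.3 CPM in controls, where they also held Upk3b at 454 and 62.1 CPM, against 5.48 and 0 CPM in mutants. Gas6 UMIs per Upk3b UMI were 0.650 and 0.582 in mesothelial-like cells of controls 1 and 2, and 0.902 and 0.987 in their epithelial-like cells. The same ratio was 6.20 and 1.70 in fibroblast-like cells of the controls, above that of mesothelial-like cells in both. The part of RNA from broken cells in the low Gas6 levels was not tested further. Epithelial-like cells at 5000 UMIs gave a Gas6 UMI in 1 of 12 and 5 of 40 mutant cells and in 2 of 14 and 4 of 15 control cells, with medians before thinning of 78395 and 28687 UMIs in mutants and 8274 and 39222 UMIs in controls. The fibroblast-like shares of 30.4% and 17.1% in mutants and 16.2% and 17.5% in controls, at medians of 31613 and 16614 UMIs in mutants and 32244.5 and 22633.5 UMIs in controls, overlap with these, and that of control 2 lies below the 26.7% of its epithelial-like cells.

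**Figure D1:**
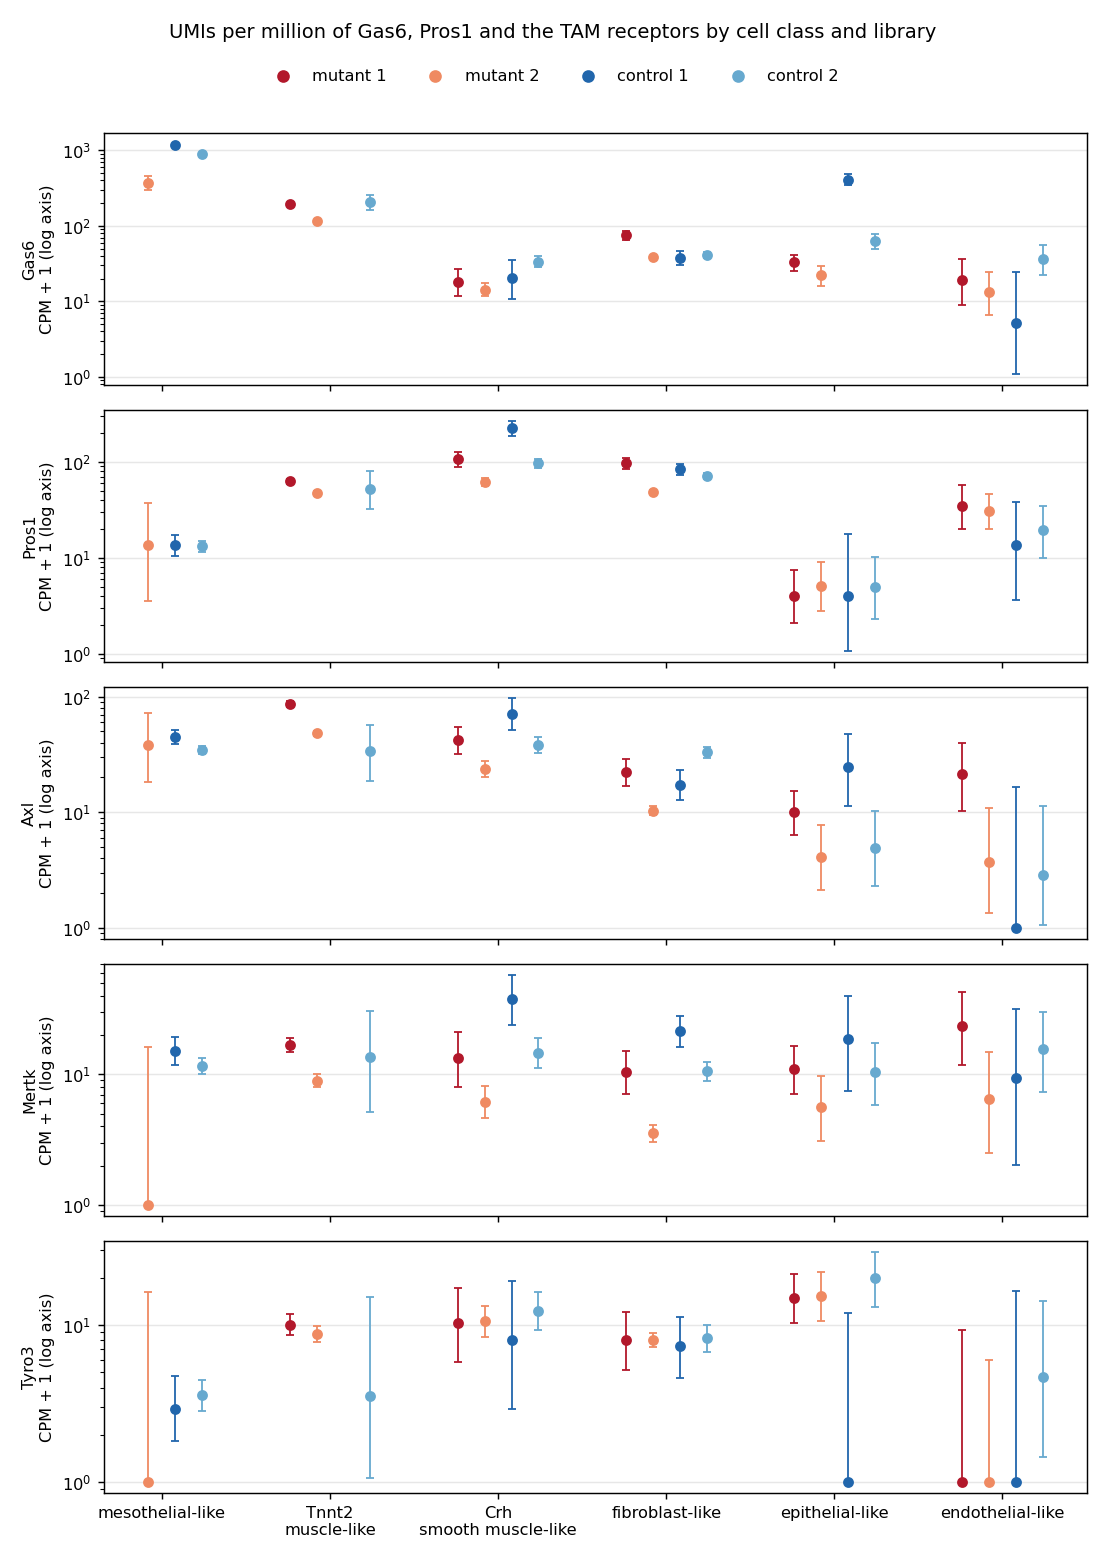
Level of each gene (CPM + 1, log axis) by cell class and library, mutant libraries left of control libraries; points are sums over the cells of a class with 95% Poisson intervals, and classes with fewer than 8 cells in a library are left out. Gas6 reaches 1174 and 879 CPM in control mesothelial-like cells, where Pros1 stands at 12.6 and 12.2 CPM.

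**Figure D2:**
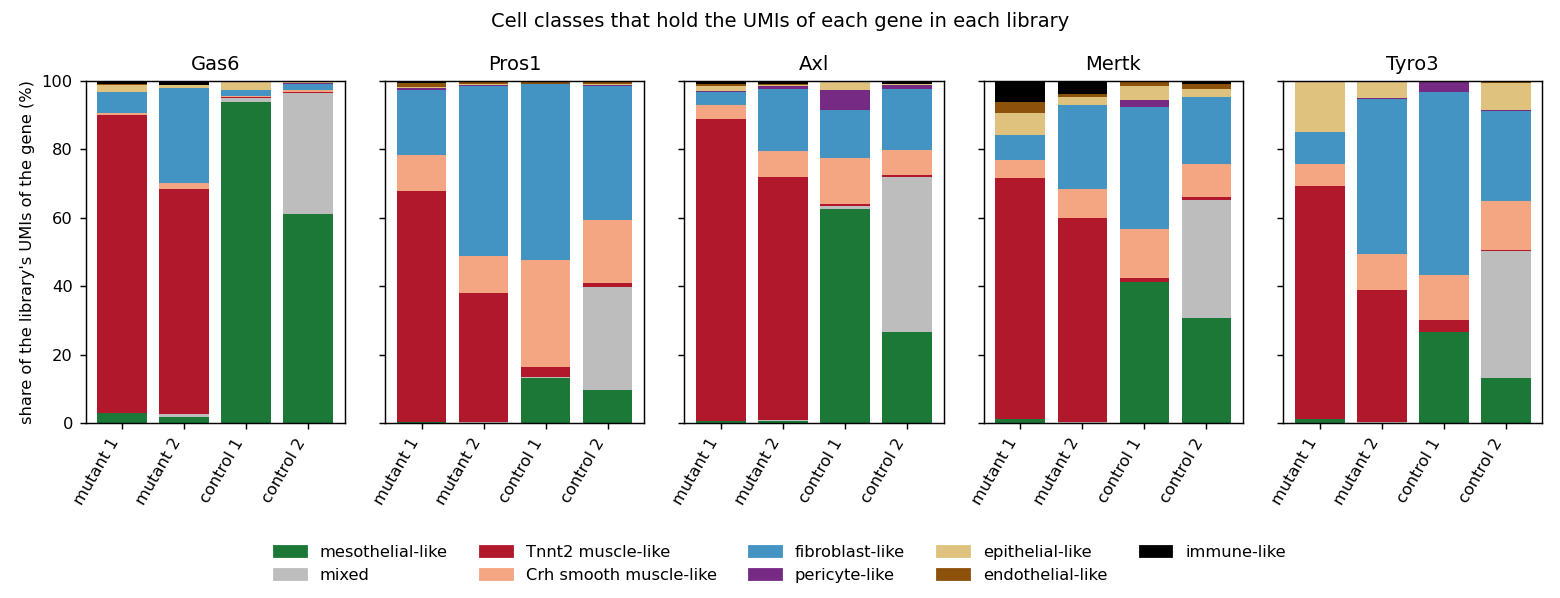
Share of each library's UMIs of a gene (%) held by each cell class, one bar per library, mutants left of controls. For Gas6, Tnnt2 muscle-like cells hold 87.1% and 65.8% in mutants and mesothelial-like cells 93.8% and 61.2% in controls; the grey part of control 2 is the mixed barcodes.

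Pros1, the gene for protein S, was low in the control mesothelial-like cells that held most Gas6. In mutants, Tnnt2 muscle-like cells held Pros1 near its level over all sorted cells (61.7 and 46.6 CPM). Mesothelial-like cells held 12.46 and 12.45 CPM in mutants, from 2 and 3 UMIs, and 12.6 and 12.2 CPM in controls. At 5000 UMIs, 6.78% (8 of 118) and 6.53% (47 of 720) of control mesothelial-like cells had a Pros1 UMI and 0% (0 of 14) and 6.67% (1 of 15) of control epithelial-like cells did, the last too few for the shares to be set against each other. Crh smooth muscle-like cells held 105 and 60.8 CPM in mutants and 222 and 95.05 CPM in controls. Lef1 fibroblast-like cells held 106 and 48.9 CPM in mutants and 100 and 83.3 CPM in controls, and Tcf21 fibroblast-like cells held 72.1 and 45.6 CPM in mutants and 65.2 and 59.1 CPM in controls. The Tnnt2 muscle-like cluster held 61.4 and 46.3 CPM in mutants, against 226 CPM from 12 UMIs in control 1 and 50.7 CPM from 20 UMIs in control 2. Epithelial-like cells stayed between 2.96 and 4.10 CPM in all libraries. Fibroblast-like cells held 18.9% and 49.9% of the Pros1 UMIs of mutants and 51.5% and 39.3% of those of controls. Tnnt2 muscle-like cells held 67.7% and 37.8% of them in mutants and 2.96% and 1.003% in controls. With the mixed barcodes left out, the control shares were 51.7% and 56.3% for fibroblast-like cells and 2.97% and 1.43% for Tnnt2 muscle-like cells. By number, fibroblast-like cells made up 18.2% and 52.1% of mutant cells and 30.2% and 13.6% of control cells. Tnnt2 muscle-like cells made up 64.2% and 35.3% of mutant cells and 0.712% and 0.657% of control cells.

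Over all sorted cells, Pros1 was at 61.7 and 46.6 CPM in mutants and 49.7 and 34.4 CPM in controls, and the groups overlapped. The log2 change was 0.44 ± 0.229 (edgeR, Benjamini-Hochberg adjusted p = 0.767), and 0.38 without the mixed barcodes (edgeR adjusted p = 0.680). Over mesenchymal-like cells it was at 69.4 and 48.0 CPM in mutants and 105 and 74.9 CPM in controls, with both mutants below both controls and a log2 change of -0.55 ± 0.258 (edgeR adjusted p = 0.685). Over fibroblast-like cells alone it was at 95.8 and 47.4 CPM in mutants and 82.6 and 69.5 CPM in controls, and the mutant values lay on either side of the controls. None of these differences passed.

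Axl, a receptor on mesenchymal and some immune cells, was detected in every named class, though not in every library. Mesothelial-like cells held 56.1 and 37.4 CPM in mutants, from 9 UMIs each, and 43.9 and 33.5 CPM in controls. Tnnt2 muscle-like cells held 85.2 and 47.2 CPM in mutants and 37.7 and 33.0 CPM in controls, from 2 and 13 UMIs. The 95% interval of control 2, 17.6 to 56.4 CPM, covers the value of mutant 2 but not that of mutant 1, and that of control 1, 4.56 to 136 CPM, covers both. This cluster was 64.2% and 35.3% of mutant cells and held 88.4% and 71.3% of their Axl UMIs. In controls it was 0.712% and 0.657% of cells and held 0.678% and 0.647% of Axl UMIs (0.683% and 1.18% with the mixed barcodes left out). Mesothelial-like cells held 62.7% and 26.7% of the Axl UMIs of controls, or 63.1% and 48.8% with the mixed barcodes left out. Pericyte-like cells held 52.4 and 40.3 CPM in mutants, from 4 and 19 UMIs, and 116 and 113 CPM in controls, from 17 and 20 UMIs. Immune-like cells held 78.6 and 73.2 CPM in mutants and 80.0 CPM in control 2. Epithelial-like cells ranged from 3.08 to 8.96 CPM in mutants and from 3.93 to 23.7 CPM in controls. Endothelial-like cells ranged from 2.73 to 20.4 CPM in mutants and from 0 to 1.84 CPM in controls.

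Axl varied among the fibroblast-like clusters. The Agtr2 cluster, which also carried the fibroblast markers Dpt and Lum, held 335 CPM in 14 cells of mutant 2 and 139 CPM in 70 cells of control 2; mutant 1 had 1 cell and control 1 none. Lef1 fibroblast-like cells held 22.3 and 7.58 CPM in mutants and 20.7 and 14.9 CPM in controls, and Tcf21 fibroblast-like cells held 16.6 and 7.65 CPM in mutants and 11.8 and 7.27 CPM in controls. Over all fibroblast-like cells Axl was at 21.2 and 9.32 CPM in mutants and 16.2 and 32.0 CPM in controls, with a log2 change of -0.76 ± 0.416 (edgeR, Benjamini-Hochberg adjusted p = 0.999). Without the Agtr2 cluster it was -0.083, an alternative chosen after seeing the data. Without mutant replicate 1 it was -1.16 and passed (edgeR adjusted p = 0.0128).

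Over all sorted cells Axl was at 65.6 and 25.2 CPM in mutants and 36.1 and 34.6 CPM in controls, so the mutant values lay on either side of the controls. The log2 change was 0.36 ± 0.375 (edgeR adjusted p = 0.977), and 0.47 without the mixed barcodes (edgeR adjusted p = 0.783). The libraries that share a number gave ratios of opposite sign, with a log2 of 0.86 for mutant 1 over control 1 and -0.46 for mutant 2 over control 2. Over mesenchymal-like cells Axl was at 72.9 and 25.7 CPM in mutants and 30.3 and 34.2 CPM in controls, with a log2 change of 0.62 ± 0.409 (edgeR adjusted p = 0.879). It was -0.71 without the Tnnt2 muscle-like cluster, and it passed at 1.14 without mutant replicate 2 (edgeR adjusted p = 0.0123). No direction for Axl can be given from these libraries.

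Mertk, the receptor best known from phagocytes, was highest in immune-like cells of the mutant libraries. These held 131 CPM from 20 UMIs in mutant 1 and 57.8 CPM from 15 UMIs in mutant 2, against 22.2 CPM from 5 UMIs in control 2. Tcf21 fibroblast-like cells held 19.4 and 4.196 CPM in mutants and 29.8 and 17.5 CPM in controls, and Lef1 fibroblast-like cells held 5.57 and 1.39 CPM in mutants and 11.1 and 5.41 CPM in controls. Crh smooth muscle-like cells held 12.4 and 5.19 CPM in mutants, from 16 and 35 UMIs, and 37.0 and 13.7 CPM in controls, from 21 and 53 UMIs. Both mutants were below both controls there, but mutant 1 and control 2 were close, and no test was made in this class. Tnnt2 muscle-like cells held 15.8 and 7.93 CPM in mutants, and mesothelial-like cells held 14.2 and 10.6 CPM in controls.

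Over fibroblast-like cells, Mertk was at 9.42 and 2.53 CPM in mutants and 20.6 and 9.56 CPM in controls, from 24 and 100 UMIs against 52 and 108. Both mutants were below both controls, although mutant 1 and control 2 were close. Within the clusters the groups overlapped: mutant 1 was above control 2 in Tcf21 cells (19.4 against 17.5 CPM) and in Lef1 cells (5.57 against 5.41 CPM). The part of the mix of clusters in the pooled order was not tested. The log2 change was -1.50 ± 0.609 and did not pass (edgeR, Benjamini-Hochberg adjusted p = 0.999); without mutant replicate 1 it was -2.23 and passed (edgeR adjusted p = 0.000176), and without mutant replicate 2 it was -0.68. Ratios within a library number were -1.13 for the libraries numbered 1 and -1.92 for those numbered 2 on the log2 scale. At 5000 UMIs, 5.80% (4 of 69) and 1.34% (29 of 2171) of mutant fibroblast-like cells had a Mertk UMI, against 16.2% (12 of 74) and 5.53% (25 of 452) of control cells. The 9 fixed immune markers together were at 1.57 and 1.62 CPM in mutant and 2.37 and 2.21 CPM in control fibroblast-like cells, with 7 and 1 of them at 0 in mutants and 5 and 3 at 0 in controls. In epithelial-like cells at the same depth, 0 of 12 and 0 of 40 mutant cells and 1 of 14 and 0 of 15 control cells had a Mertk UMI. Over all sorted cells Mertk was at 15.3 and 5.05 CPM in mutants and 17.9 and 9.47 CPM in controls, and the groups overlapped (log2 change -0.39 ± 0.484, edgeR adjusted p = 0.977; without the mixed barcodes -0.42, edgeR adjusted p = 0.840). Without mutant replicate 1 this was -1.15 and passed (edgeR adjusted p = 0.0262), and without mutant replicate 2 it was 0.13.

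Tyro3, the receptor best known from the nervous system, was at most 18.9 CPM in every class and library. Over all sorted cells it was at 9.05 and 7.64 CPM in mutants and 3.67 and 5.35 CPM in controls, with both mutants above both controls. The log2 change was 0.90 ± 0.354 and did not pass (edgeR, Benjamini-Hochberg adjusted p = 0.545), and was 0.91 without the mixed barcodes (edgeR adjusted p = 0.448). Mesothelial-like cells of controls held 1.90 and 2.56 CPM, from 8 and 41 UMIs. Fibroblast-like cells held 7.06 and 7.04 CPM in mutants and 6.33 and 7.26 CPM in controls, a log2 change of 0.16 ± 0.356 (edgeR adjusted p = 0.999). Epithelial-like cells held 13.9 and 14.4 CPM in mutants and 0 and 18.9 CPM in controls; the 0 of control 1 allows up to 10.9 CPM at 95% confidence.

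Of the 5 genes, 0 passed over all sorted cells, where 49 of 16242 genes (0.302%) passed in edgeR, 47 of them lower in mutants (0.289%) and 2 higher (0.0123%); 2 of the 5 had an unadjusted p under 0.05, against 8.71% of all genes, and DESeq2 called 1, Gas6, against 2.96% of all genes. The libraries of the groups did not overlap for 2 of them, Gas6 and Tyro3, against 30.4% of all genes tested. Over mesenchymal-like cells 0 of the 5 passed in edgeR, against 2 of 14327 genes (0.014%); 1 had an unadjusted p under 0.05, against 8.4% of all genes, and DESeq2 called 1, again Gas6, against 2.58% of all genes. The groups did not overlap there for Gas6 and Pros1, against 33.9% of genes. Over fibroblast-like cells 0 of 12426 genes passed in edgeR (0%), with 280 (2.25%) at an unadjusted p under 0.05 and 4 (0.0322%) called by DESeq2, none of them among the 5. Mertk had an unadjusted p under 0.05, and its groups did not overlap, as in 24.1% of genes, though they overlapped within the Lef1 and the Tcf21 cluster. Counts over 5 genes are too few to be read as a result about the set.

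Gas6 over mesenchymal-like cells moved the other way from Gas6 over all sorted cells. It was at 162 and 65.5 CPM in mutants and 35.2 and 42.7 CPM in controls, with both mutants above both controls and a log2 change of 1.57 ± 0.379 (edgeR, Benjamini-Hochberg adjusted p = 0.261). It passed with DESeq2 (adjusted p = 0.00397) and in edgeR without a filter on low counts (adjusted p = 2.14e-05), without mutant replicate 1 (0.95, adjusted p = 0.0394) or without mutant replicate 2 (2.02, adjusted p = 0.000329). Without the Tnnt2 muscle-like cluster, an alternative chosen after seeing the data, it was 0.36 (edgeR adjusted p = 0.999, the highest of 11 alternatives). The 12 fixed mesothelial markers together were at 333 and 135 CPM in mutant and 64.0 and 129 CPM in control mesenchymal-like cells, with 1 and 0 of them at 0 in mutants and 1 and 0 in controls; their part in this result was not tested. Over fibroblast-like cells Gas6 was at 74.2 and 37.5 CPM in mutants and 36.8 and 40.1 CPM in controls, with a log2 change of 0.55 ± 0.283 (edgeR adjusted p = 0.999). Mutant 1 was above both controls there and mutant 2 lay between them, and the mesothelial markers stood at 60.1 and 21.0 CPM in mutants and 42.7 and 109 CPM in controls.

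**Figure D3:**
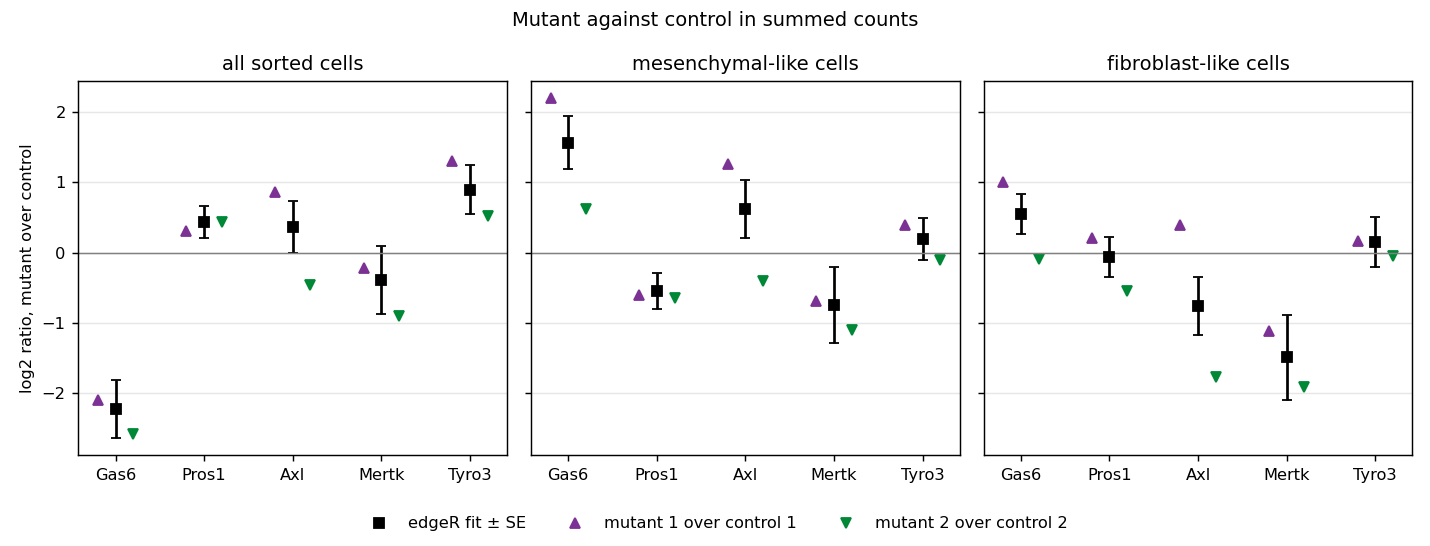
Log2 ratio of mutant over control (y axis) for each gene over 3 sums of cells: squares are the edgeR fit ± SE (n = 2 per group), and triangles are the ratios of libraries that share a number. Gas6 is at -2.23 over all sorted cells and 1.57 over mesenchymal-like cells; the triangles of Axl lie on opposite sides of 0 in every panel.

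Cells that could both send and receive were counted from UMIs of a ligand and a receptor in the same cell at 5000 UMIs. Gas6 and Axl were found together in 16.6% (42 of 253) and 8.37% (123 of 1469) of Tnnt2 muscle-like cells of mutants, and in 21.2% (25 of 118) and 14.3% (103 of 720) of mesothelial-like cells of controls. The products of the separate shares were 18.0% and 8.13% in mutants and 22.1% and 14.7% in controls. The pair was therefore found about as often as detection of each gene alone gives. Fibroblast-like cells held both in 4.35% (3 of 69) and 0.553% (12 of 2171) of mutant cells and in 0% (0 of 74) and 1.99% (9 of 452) of control cells, and 0 of 74 has an exact 95% upper bound of 4.86%. Pros1 and Axl are not a ligand and its receptor by the account above, so cells with both are not counted as sending and receiving. They were found together in 7.91% (20 of 253) and 3.47% (51 of 1469) of mutant Tnnt2 muscle-like cells, and in 1.69% (2 of 118) and 1.39% (10 of 720) of control mesothelial-like cells. These shares were not set against the separate shares of Pros1 and Axl. Gas6 and Mertk were found together in 4.74% (12 of 253) and 1.97% (29 of 1469) of mutant Tnnt2 muscle-like cells and in 6.78% (8 of 118) and 5.83% (42 of 720) of control mesothelial-like cells.

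**Figure D4:**
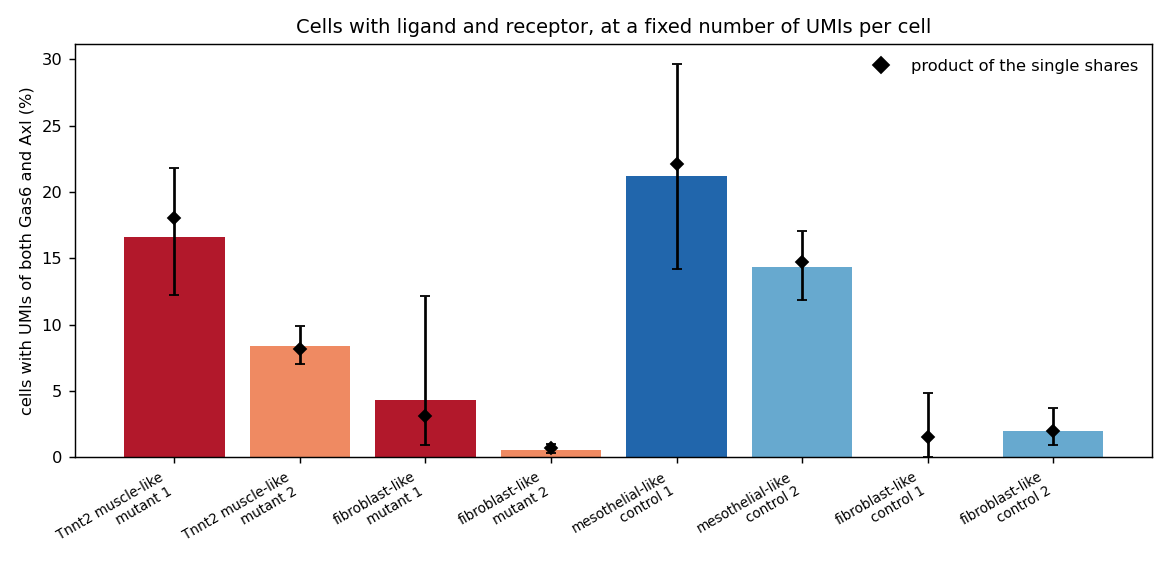
Share of cells with UMIs of both Gas6 and Axl (%, y axis) after each cell was thinned to 5000 UMIs, by class and library; bars are shares with exact 95% binomial intervals, and diamonds are the products of the single shares. The diamonds lie within the interval of every bar; the bars run from 0% in control 1 fibroblast-like cells to 21.2% in control 1 mesothelial-like cells.

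The wider pathway was read from 8 fixed lists of 55 genes. Over all sorted cells 0 of the 46 that could be tested passed in edgeR, with 3 at an unadjusted p under 0.05 and 0 called by DESeq2 (8.71% and 2.96% of all genes), and their median log2 change was -0.024, against 0.026 over all genes tested. Over mesenchymal-like cells 0 of 42 passed (2 at an unadjusted p under 0.05 and 2 called by DESeq2, against 8.4% and 2.58% of all genes; median -0.031 against 0.016), and over fibroblast-like cells 0 of 38 (3 at an unadjusted p under 0.05 and 0 called by DESeq2, against 2.25% and 0.0322% of all genes; median -0.15 against 0.011). The vitamin K cycle recycles the cofactor that Gas6 and protein S need. Of the 6 genes in its list, 1 had a positive change over all sorted cells, 5 over mesenchymal-like and 4 over fibroblast-like cells. Their median log2 changes were -0.29, 0.19 and 0.0066, against 0.026, 0.016 and 0.011 over all genes tested. Vkorc1, the vitamin K epoxide reductase, was at 90.0 and 114 CPM in mutants and 155 and 180 CPM in controls (log2 change -0.63 ± 0.327, edgeR adjusted p = 0.763). Ggcx, the carboxylase itself, was at 19.6 and 11.6 CPM in mutants and 29.2 and 19.2 CPM in controls, a log2 change of -0.57. Over mesenchymal-like cells the changes of Vkorc1 and Ggcx were 0.28 and -0.11.

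Adam10 and Adam17 encode proteases that shed TAM receptors from the cell surface. Adam10 was at 130 and 74.0 CPM in mutants and 247 and 166 CPM in controls over all sorted cells, with both mutants below both controls (log2 change -0.96 ± 0.306, edgeR adjusted p = 0.392), and its change was 0.26 over mesenchymal-like cells and -0.052 over fibroblast-like cells. Adam17 was at 39.6 and 28.5 CPM in mutants and 37.3 and 28.4 CPM in controls, a log2 change of 0.12. Mgp, another vitamin K-dependent protein, was at 1926 and 1316 CPM in mutants and 1208 and 1417 CPM in controls, a log2 change of 0.34 with overlapping groups. Mfge8, which bridges dying cells to integrins, was at 79.4 and 80.0 CPM in mutants and 70.7 and 70.2 CPM in controls over all sorted cells (0.25), but at 80.3 and 80.2 CPM in mutants and 116 and 101 CPM in controls over mesenchymal-like cells (-0.34). Socs3, a feedback inhibitor of cytokine signalling, was at 81.2 and 55.9 CPM in mutants and 82.2 and 69.6 CPM in controls, a log2 change of -0.092. Lgals3, the gene for galectin 3, a proposed Mertk ligand, was at 22.5 and 3.46 CPM in mutants and 8.68 and 17.3 CPM in controls. Over mesenchymal-like cells Lgals3 was at 5.58 and 1.84 CPM in mutants and 0.303 and 0.508 CPM in controls, with a log2 change of 3.01 ± 0.746 (edgeR adjusted p = 0.277). The control values rest on very few Lgals3 UMIs, out of 3296274 and 15738402 UMIs of all genes in these cells. Over fibroblast-like cells Lgals3 was not among the genes tested. None of these changes passed in edgeR.

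Genes with the most similar profile were sought over 18 sums of a class in a library with at least 20 cells, among 6691 genes with a mean of at least 20 CPM. For Gas6 these were Thsd4, Rnase4 and Ccnd3, with Pearson correlations of log2(CPM + 1) of 0.964, 0.962 and 0.959. For Pros1 they were Emilin1 (0.931), Ralgps2 (0.929) and Csrp1 (0.926), and for Axl they were C1qtnf6 (0.939), Rbms2 (0.925) and Numbl (0.900). For Mertk they were Lgals8 (0.905), AW549877 (0.904) and Phkb (0.903), and for Tyro3 Mthfd2l (0.895), Msrb1 (0.870) and Acp1 (0.867). The sums share libraries and differ in depth, and the genes were picked as the highest of many, so these values are descriptions.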

How the data were processed

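The deposited matrices held raw UMI counts, whole numbers for each barcode and gene. They were made with Cell Ranger 6.0.2 on mm10, per the submitters' processing notes, from libraries of the 10x 3' V3 kit, per the labels' protocols. Barcode-calling settings are not given in the sources used here. Of 32285 gene IDs, 32235 matched GENCODE vM21.

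Barcodes with at least 1000 genes and at most 15% mitochondrial UMIs were kept. The automatic threshold of Scrublet marked 2 and 0 barcodes in mutant and 3 and 2 in control libraries and so did not work; in its place the top-scoring barcodes were dropped, at 0.8% per 1000. Cells were clustered (scanpy 1.11.5, 3000 variable genes, 30 components, Leiden resolution 0.4, replicate numbers centred) into 12 clusters. A cluster took the name of the fixed list with most markers in at least 10% of its cells and 2-fold above other clusters, with at least 3 needed, and was called mixed where at least 66% of markers lay within 2-fold of its library, a rule added after seeing the data.

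Sums of counts per library went into edgeR 4.0.16 under R 4.3.3 (TMM, filterByExpr, quasi-likelihood, two-sided, no covariate; Benjamini-Hochberg adjusted p under 0.05 over all genes). Each SE given after ± was derived from this test, as the absolute log2 change divided by the square root of the F statistic. Tested on simulated counts of the sorted cells (15930 genes), the fit called 16% of 2-fold, 92% of 4-fold, 98% of 8-fold and 100% of 16-fold changes, with 3 false calls. The changed genes were drawn only from those above a minimum expected count in the smallest library. All genes were given the spread fitted to genes of like level, so genes with fewer counts or a larger spread were not tried. DESeq2 1.42.0 and other settings were alternatives. Replicates were not identical (chi-square over degrees of freedom of 203 in mutants and 97.2 in controls). Shares of cells with a UMI used cells thinned to 5000 UMIs, leaving out shallower ones, with exact binomial intervals. Named genes were the 5 members, 8 pathway genes, any list gene that passed, and the 3 nearest profiles of each member. Members and lists were chosen with earlier results of these data known. Motifs were searched in RefSeq promoters of GRCm38.p6, which has no bearing on the counts.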

Additional observations from a re-analysis of the deposited data

How the results depend on the processing

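Of 175 repeats of a test of one of the 5 genes under another setting, 156 kept the direction and the side of the threshold, 12 came to pass it and 7 changed sign; the cause was not tested. Gas6 over all sorted cells was -2.22 without a low-count filter, -2.22 with DESeq2, -2.28 with the replicate block (edgeR adjusted p = 0.00399) and -2.74 to -1.86 without 1 library. Over mesenchymal-like cells it was 1.60 without a filter, 1.57 with DESeq2 and 0.95 to 2.02 without 1 library. Axl without 1 library ranged from -0.27 to 0.80 over all sorted, from -0.12 to 1.14 over mesenchymal-like and from -1.16 to -0.11 over fibroblast-like cells, and was -0.71 over mesenchymal-like cells without the Tnnt2 muscle-like cluster. Mertk without 1 library ranged from -1.15 to 0.13 over all sorted and from -2.23 to -0.68 over fibroblast-like cells, where Pros1 ranged from -0.40 to 0.26 and Tyro3 from -0.046 to 0.30. Over their alternatives the adjusted p ranged from 0.0123 to 0.9999 for Axl over mesenchymal-like cells, 0.0128 to 0.9999 for Axl over fibroblast-like cells, 0.0262 to 0.99996 for Mertk over all sorted cells and 0.000176 to 0.99999 for Mertk over fibroblast-like cells. Fits without 1 library leave a lone library assumed to vary like the other group.

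Calls over all sorted cells numbered 49, against 733 without a filter, 481 with DESeq2, 478 with the block and 34 to 1159 without 1 library. Over mesenchymal-like cells they numbered 2, against 826, 370, 36 and 17 to 802 for the same settings, and 0 with RLE normalization, with doublets kept, clustered without the 5 genes or without the Tnnt2 cluster. Over fibroblast-like cells they numbered 0, against 120, 4, 1 and 35 to 614. The labels do not say that a shared number marks a shared batch; same-numbered libraries deviated together (r = 0.629 over 6751 genes, 1 independent value).

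Tyro3 in mutant fibroblast-like cells was 7.05 CPM, 7.29 clustered without the 5 genes and 7.83 with doublets kept. Shares of cells with a UMI depend on depth by construction. Averaged over the 2 libraries, unthinned and at 10000 UMIs, they were 78.5% and 62.5% for Gas6, 67.1% and 42.9% for Axl and 65.0% and 37.9% for Pros1 in mutant Tnnt2 muscle-like cells. In control mesothelial-like cells they were 99.8% and 99.2% for Gas6, 56.7% and 27.8% for Axl and 24.6% and 12.47% for Pros1. The share of mesothelial-like cells differed by -31.2 percentage points (mutant minus control; -30.3 at resolution 0.8), with an exact permutation p of 0.333, the smallest that 2 against 2 libraries allow. At resolution 0.8 the fibroblast-like name was kept by 30 and 1300 cells in mutants and 42 and 246 cells in controls. Clusters left unnamed, with most markers from the fibroblast list, held 77 and 1185 cells in mutants and 47 and 254 cells in controls. No cluster was named immune-like at that resolution, and levels by class were not computed for it. Mesothelial-like mutant cells, 2 and 11, are too few for a test within the class.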
